A study of Homo sapiens with 6 samples.

Results

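The genes described here carry out the breakdown of fatty acids: the carnitine shuttle, mitochondrial and peroxisomal beta-oxidation, ketone body metabolism and the peroxins that build peroxisomes. They were chosen by gene symbol, as every probe whose platform annotation names 1 of 45 listed genes. Of these, 43 were measured, by 68 probes, among 20046 genes and 47323 probes on the array. ACSL3 and PEX13 matched no annotated probe, and their transcript levels were not analysed here. Measurements came from HepG2, a cell line grown from a human liver tumour, with 3 PBLD overexpressed samples and 3 control samples, each on 1 Illumina bead array. The name PBLD refers to a phenazine biosynthesis-like domain in the protein. All samples are the same cell line, and the labels name no other genotype, treatment or time. The sources used here do not give how PBLD was introduced, what the control cells received, or whether replicates came from separate cultures or from 1 clone. A p-value here thus reflects the spread among these arrays alone, possibly a technical one, and precision is limited by having 3 arrays per group.

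Fatty acids are first joined to coenzyme A by acyl-CoA synthetases. Long acyl chains then enter mitochondria through the carnitine shuttle, whose gatekeeper in liver is CPT1A. There the beta-oxidation spiral removes acetyl units in turn, passing electrons through the electron transfer flavoprotein to the respiratory chain. Peroxisomes shorten very long and branched chains by a parallel set of enzymes, and liver turns surplus acetyl-CoA into ketone bodies. Many of these genes are known targets of the fatty acid sensor PPARA in liver.

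Promoter sequences are shown for the members with the largest falls, CPT1A and BDH1, and for ACSL1, which rose, because their transcript levels moved most. Each is the 250 bases before the most upstream start that RefSeq lists for the gene (GRCh38.p14), 5′ to 3′, with every CG pair in capitals.
CPT1A, chr11:68844278-68844527, minus strand: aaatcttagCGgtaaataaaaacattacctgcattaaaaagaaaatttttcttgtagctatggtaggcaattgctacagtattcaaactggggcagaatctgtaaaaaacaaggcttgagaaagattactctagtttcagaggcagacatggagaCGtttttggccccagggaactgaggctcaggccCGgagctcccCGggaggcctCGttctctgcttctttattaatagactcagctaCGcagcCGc
BDH1, chr3:197573344-197573593, minus strand: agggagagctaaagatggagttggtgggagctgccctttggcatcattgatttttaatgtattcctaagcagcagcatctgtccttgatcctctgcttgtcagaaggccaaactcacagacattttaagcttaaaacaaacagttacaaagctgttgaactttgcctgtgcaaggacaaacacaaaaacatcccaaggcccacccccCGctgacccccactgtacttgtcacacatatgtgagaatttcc
ACSL1, chr4:184825969-184826218, minus strand: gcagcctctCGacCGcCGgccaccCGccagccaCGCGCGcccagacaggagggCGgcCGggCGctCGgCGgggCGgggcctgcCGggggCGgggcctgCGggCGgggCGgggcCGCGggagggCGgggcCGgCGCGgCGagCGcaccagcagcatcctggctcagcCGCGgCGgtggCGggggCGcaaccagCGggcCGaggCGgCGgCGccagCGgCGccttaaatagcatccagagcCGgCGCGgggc
CG pairs numbered 7 in the CPT1A stretch, 1 in that of BDH1 and 41 in that of ACSL1, against a median of 18 over 53 promoters of 36 listed genes and of 11 over all 35116 promoters. RefSeq lists 1 start for CPT1A, 2 for BDH1 and 5 for ACSL1, so these stretches need not be the ones used in HepG2 cells. The nuclear receptor half-site AGGTCA, on either strand, stood in 3.77% of the 53 promoters (FABP1 and ACSL5) and in 12.1% of all promoters. A direct repeat of that half-site with 1 base between (DR1), which overlaps the half-site matches, stood in 0 of the 53 and in 0.0171% of all. CCAAT or its reverse complement stood in 20.8% of the 53 and in 32% of all, and the 10 genes that hold it include ACSL1, before a start other than the one shown, and ETFB. TGACGTCA, which reads the same on both strands, stood in 3.77% (ACOX3) and in 1.65%. The stretches printed above themselves held 0 of these motifs. These are matches of letters in a window and say nothing of factor binding.

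The overexpression was checked on PBLD itself, whose probe ILMN_1789653 read 12.62, 12.84 and 12.72 in PBLD cells, against 8.0, 8.07 and 8.18 in control cells, on the deposited log2 intensity scale. ILMN_2304404 rose as well, by 4.40, while ILMN_1699684 (-0.05) and ILMN_1760748 (0.05, annotated to the same transcript as the probes that rose) were not called and lay near or below background. All arrays had a median of 8 on that scale, and 39.7% to 42.3% of probes per array lay above a background limit of 8.05 to 8.08, set from probes of genes that liver cells do not express. Of 10 hepatocyte markers, 9 were measured and all 9 were above background. Their summed level ran from 18.19 to 18.33 in PBLD cells and from 18.30 to 18.51 in control cells (log2), and 4 of them fell (APOA1, APOB, TTR and SERPINA1). Of 11 markers of immune, endothelial and fibroblast cells, 3 were above background on at least 3 arrays (CD68, VWF and PDGFRB), 5 on none, and 0 were called in limma. Their summed level ran from 12.01 to 12.09 in PBLD cells and from 12.07 to 12.29 in control cells. The part of the lower hepatocyte markers in the differences below was not tested. In bulk RNA, fewer cells of a kind and less RNA per cell cannot be told apart.

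The comparison asked which fatty acid oxidation transcripts differ when PBLD is raised. Of the 43 measured genes, 7 fell and 1 rose, with each gene read on its brightest probe and called at an adjusted p under 0.05 in limma, fitted over all probes. CPT1A (-0.64), BDH1 (-0.62), CRAT (-0.37), ETFDH (-0.35), ETFB (-0.30), ECI2 (-0.30) and ACAA1 (-0.28) fell on the log2 scale, and ACSL1 rose by 0.68. The falls were 16.3% of the measured genes, where 4.2% of all genes fell, and the rise was 2.33%, where 5.81% of all genes rose. Restricted to genes above background on at least 3 arrays, the falls were 17.9% of 39 members, beside 7.63% of 11022 genes, and the rise 2.56% beside 10.5%. Over all genes 1164 rose and 842 fell, a split that other scalings moved to 1290 and 1332 (quantile), 1177 and 1475 (cyclic loess) and 245 and 406 (normexp with quantile). The median log2 difference was -0.07 over the members and 0.01 over all genes. The members' median was -0.03 without PBLD replicate 3, -0.04 without control replicate 1 and -0.14 after normexp with quantile normalization. Differences were negative in 69.8% of the members and in 46.3% of all genes. The count of falls depends on single arrays and on the processing: it was 4 without PBLD replicate 1, 11 after quantile normalization alone and 3 after normexp background correction with quantile normalization. In each of these settings CPT1A, CRAT, BDH1 and ACSL1 kept their calls.

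**Figure D1:**
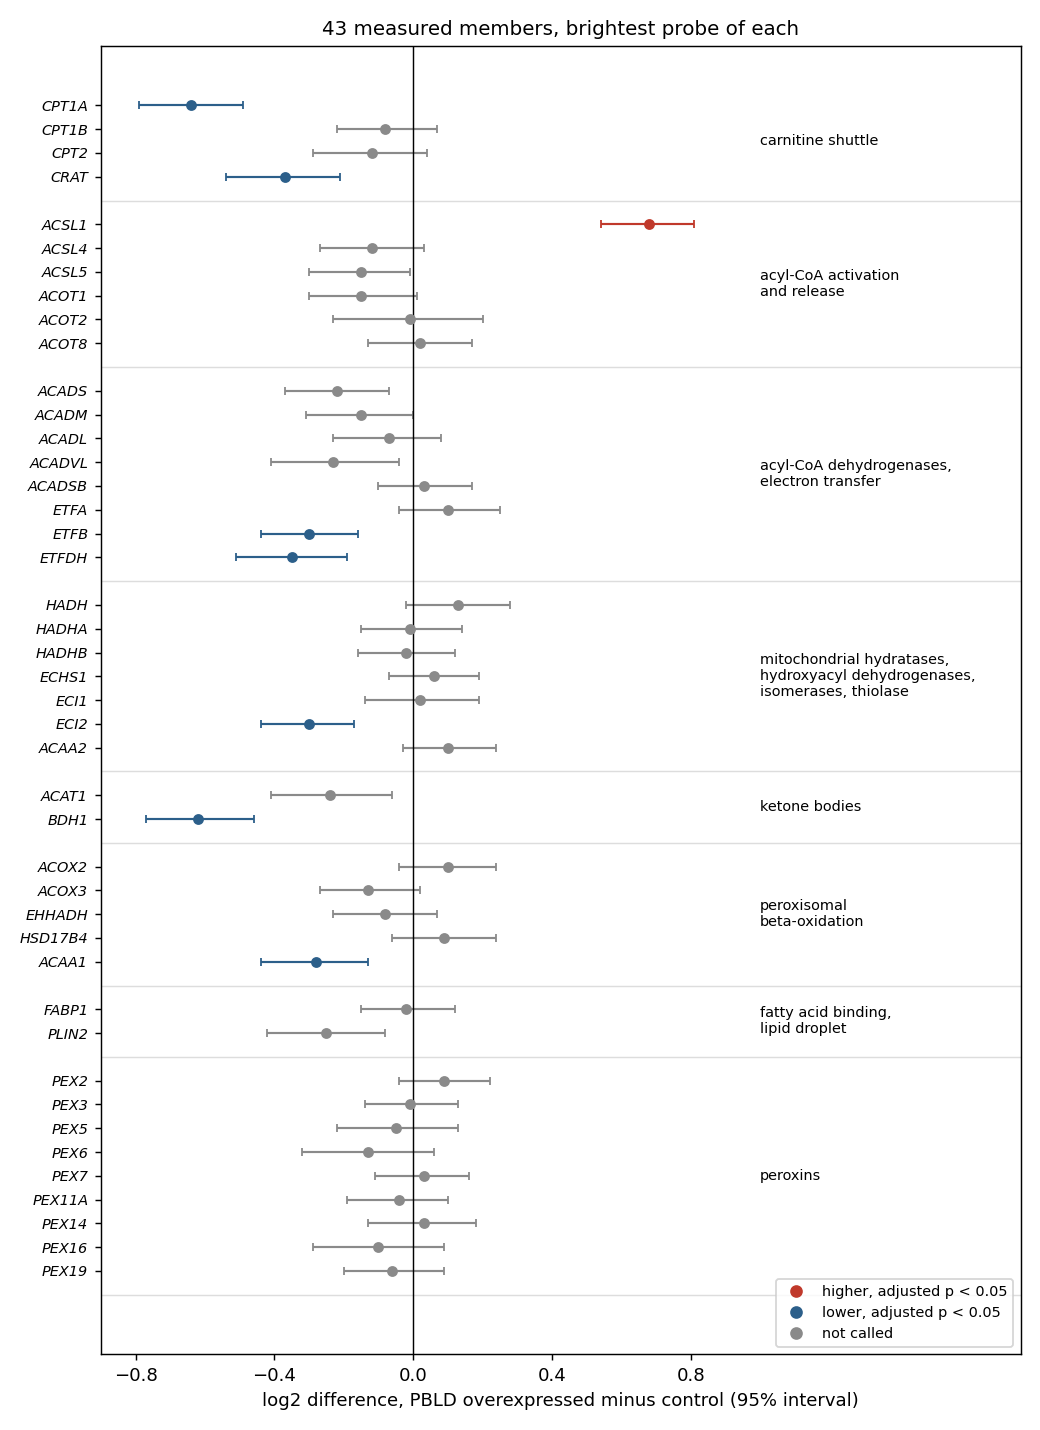
Log2 difference, PBLD overexpressed minus control, for the brightest probe of each of the 43 measured genes, ordered by role, with 95% intervals (points in blue fell, in red rose and in grey were not called at an adjusted p under 0.05). The 7 falls are spread over 5 of the 8 roles, ACSL1 stands alone on the right at 0.68, and all 9 peroxins lie between -0.13 and 0.09.

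The groups of arrays did not overlap in 10 of the 43 members with PBLD below control, where 9.82% of all genes did so. With PBLD above control they did not overlap in 2 of the 43, where 13.6% of all genes did so. The 10 were the 7 that fell with ACSL5, ACADS and PLIN2, and the 2 were ACSL1 and PEX2. At the probe level 11 of the 68 member probes fell and 1 rose (16.2% and 1.47%), where 2.57% of all probes fell and 3.5% rose. These shares are not matched for level. Of the member probes 53 lay above background on at least 3 arrays, beside 39.7% to 42.3% of all probes per array. The 11 include 3 probes of ETFB and 2 of BDH1. Of the called members ACAA1 lay closest to the threshold (limma adjusted p = 0.0242), followed by ETFB (0.00973) and ETFDH (0.00955). Just outside lay ACADS (-0.22, limma adjusted p = 0.0839) and PLIN2 (-0.25, limma adjusted p = 0.0888).

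In the carnitine shuttle, 2 of 4 genes fell and 2 were not called. CPT1A makes the acylcarnitine that crosses into mitochondria and is the main control point of the pathway, and it is measured by 3 probes that did not give the same answer. The brightest, ILMN_1696316, read 8.65, 8.72 and 8.47 in PBLD cells, against 9.31, 9.26 and 9.20 in control cells. All PBLD arrays lay below all control arrays, a difference of -0.64 (SE 0.07, 95% interval -0.79 to -0.49, limma adjusted p = 3.15e-05), which is 1.56-fold lower. ILMN_1687589 read 8.31, 8.34 and 8.32 in PBLD cells, against 8.37, 8.37 and 8.29 in control cells. On this probe the groups overlapped, at -0.02 (95% interval -0.15 to 0.11, limma adjusted p = 0.954), with all arrays above background. Its readings lay close to the background limits of 8.05 to 8.08. A fall as large as that on ILMN_1696316 could thus not be seen on it. The dimmest probe, ILMN_1710052, was above background on no array, and its difference was -0.13 (limma adjusted p = 0.433).

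Platform annotation assigns ILMN_1696316 and ILMN_1710052 to the CPT1A transcript NM_001031847 and ILMN_1687589 to the transcript NM_001876. Whether a probe reads 1 transcript alone was not examined, since probe sequences were not used here. Within each array, the log2 ratio of ILMN_1696316 to ILMN_1687589 was 0.34, 0.38 and 0.15 in PBLD cells, against 0.94, 0.89 and 0.91 in control cells. The ratios did not overlap between groups and differed by -0.62. An exact two-sided permutation test gave p = 0.1, the smallest that 3 arrays against 3 allow (0.133 adjusted over the 4 probe pairs compared). The fall in CPT1A is thus measured on 1 of its 2 probes above background, and the other, ILMN_1687589, lay close to the limit. ILMN_1696316 lost its call in none of the 15 alternatives run on it, with log2 differences from -0.57 to -0.95.

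**Figure D2:**
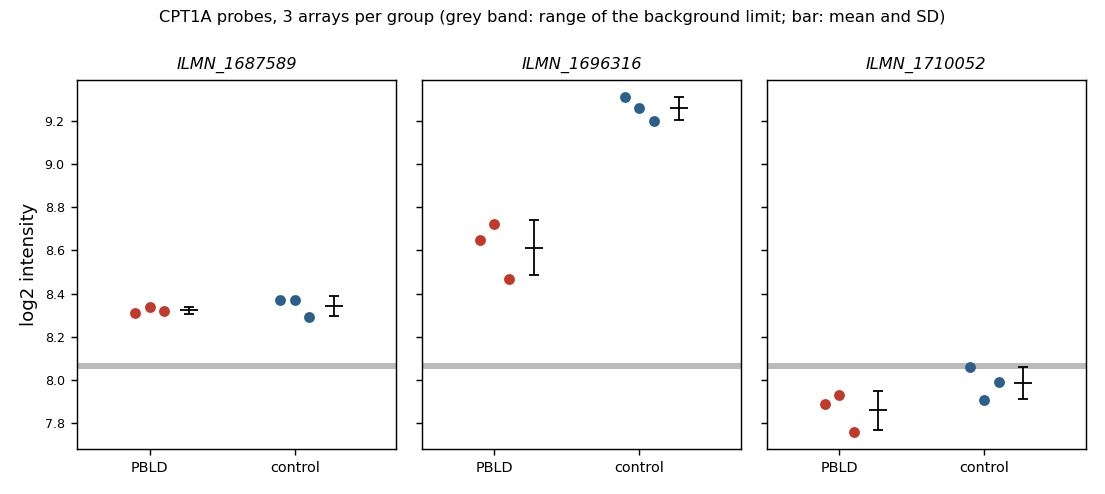
Log2 intensity of the 3 CPT1A probes on each array (points; horizontal mark and bar: mean and SD, n = 3 per group; grey band: background limits of the 6 arrays). ILMN_1696316 sits at 8.47 to 8.72 in PBLD cells and 9.20 to 9.31 in control cells, while ILMN_1687589 stays between 8.29 and 8.37 in both and ILMN_1710052 at or below background.

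CRAT, which exchanges acetyl and short acyl groups between carnitine and coenzyme A, read 8.94, 9.06 and 8.79 in PBLD cells, against 9.39, 9.33 and 9.18 in control cells. Its groups were apart, with a difference of -0.37 (SE 0.08, limma adjusted p = 0.00686) or 1.29-fold lower. CPT2, which returns the chain to coenzyme A inside the mitochondrion, averaged 9.90 ± 0.14 in PBLD cells and 10.03 ± 0.09 in control cells (SD, n = 3 each), and its difference of -0.12 (95% interval -0.29 to 0.04) was not called. CPT1B, the muscle form of the entry enzyme, was close to background in both groups, at -0.08 (95% interval -0.22 to 0.07).

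Among genes of acyl-CoA activation and release, 1 of 6 rose and 5 were not called. ACSL1, a synthetase that activates long-chain fatty acids and is the main such enzyme of liver, read 9.78, 9.67 and 9.77 in PBLD cells, against 9.05, 9.13 and 9.02 in control cells. PBLD arrays were all higher, by 0.68 (SE 0.06, 95% interval 0.54 to 0.81, limma adjusted p = 5.84e-06), or 1.60-fold. It is the member with the smallest p, and it moved against CPT1A, the next step on the way into mitochondria. ACSL4, which prefers arachidonic acid, had -0.12 (95% interval -0.27 to 0.03), and ACSL5, found on mitochondria and the endoplasmic reticulum, had -0.15 (95% interval -0.30 to -0.01, limma adjusted p = 0.289). Between ACSL1 and ACSL5, the within-array log2 ratio was higher by 0.83 in PBLD cells, with no overlap of groups (exact permutation p = 0.1, 0.133 adjusted over the 4 pairs). That p is the smallest the test allows with these arrays, and the pair was chosen after its values were seen. The thioesterases ACOT1 (-0.15), ACOT2 (-0.01) and ACOT8 (0.02), which free fatty acids from coenzyme A, were not called. ACOT1 and ACOT2 are near copies, so which of them a probe reads is uncertain.

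Acyl-CoA dehydrogenases take the first step of each turn, and their electrons pass to the flavoprotein of ETFA and ETFB and on to ubiquinone through ETFDH. In this group 2 of 8 genes fell, and both belong to electron transfer. ETFB fell on all of its 3 probes. The brightest, ILMN_2300970, read 13.61, 13.73 and 13.56 in PBLD cells, against 13.96, 13.98 and 13.87 in control cells. Groups were apart on each probe, at -0.30 (SE 0.07, limma adjusted p = 0.00973) here, at -0.46 on ILMN_1684758 (limma adjusted p = 0.000629) and at -0.28 on ILMN_1729374 (limma adjusted p = 0.0279). The call on ILMN_2300970 was lost without control replicate 2 (0.0568) or PBLD replicate 1 (0.0502), and that on ILMN_1729374 without control replicate 1 (0.125) or 2 (0.138) or PBLD replicate 1 (0.13) or 3 (0.0986). ETFDH read 8.87, 9.11 and 9.01 in PBLD cells, against 9.46, 9.34 and 9.23 in control cells, a difference of -0.35 (SE 0.08, limma adjusted p = 0.00955) or 1.27-fold lower, with the call lost without control replicate 1 (0.0671) or PBLD replicate 1 (0.0708).

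ETFA, the partner subunit of ETFB, averaged 13.07 ± 0.10 in PBLD cells and 12.97 ± 0.08 in control cells (SD, n = 3 each), at 0.10 (95% interval -0.04 to 0.25), and was not called. The within-array log2 ratio of ETFB to ETFA was 0.53, 0.57 and 0.59 in PBLD cells, against 1.06, 0.93 and 0.93 in control cells. That log2 ratio differed by -0.41 between groups with no overlap (exact permutation p = 0.1, 0.133 adjusted over the 4 pairs). No acyl-CoA dehydrogenase was called in the main fit. ACADVL, for very long chains, had -0.23 (95% interval -0.41 to -0.04), ACADS, for short chains, -0.22 (-0.37 to -0.07), and ACADM, for medium chains, -0.15 (-0.31 to 0.00). ACADSB, which acts on short branched chains, had 0.03. ACADL was above background on 1 of the 6 arrays. In other settings ACADVL was called lower, after quantile normalization or cyclic loess and with a replicate block. ACADM was called lower after quantile normalization or cyclic loess, and ACADS after cyclic loess and without control replicate 2.

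The remaining mitochondrial steps, hydration, the second oxidation, isomerisation and thiolysis, held 1 fall among 7 genes. ECI2, an isomerase that moves double bonds so that unsaturated chains can be oxidised and that is also found in peroxisomes, read 12.25, 12.31 and 12.28 in PBLD cells, against 12.60, 12.64 and 12.51 in control cells. Its PBLD arrays were all lower, at a difference of -0.30 (SE 0.06, limma adjusted p = 0.0068). That call was lost with an intensity trend and robust settings (limma adjusted p = 0.0538) and after normexp with quantile normalization (0.133). It was also lost when a gene's probes were averaged. A further probe above background, ILMN_2384536, gave -0.25 (95% interval -0.42 to -0.08) without a call. The other 6 genes had differences from -0.02 to 0.13 with intervals that span 0. Those of the trifunctional protein were -0.01 for HADHA (95% interval -0.15 to 0.14) and -0.02 for HADHB (-0.16 to 0.12). The short-chain hydroxyacyl dehydrogenase HADH had 0.13, the hydratase ECHS1 0.06, the isomerase ECI1 0.02 and the thiolase ACAA2 0.10.

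**Figure D3:**
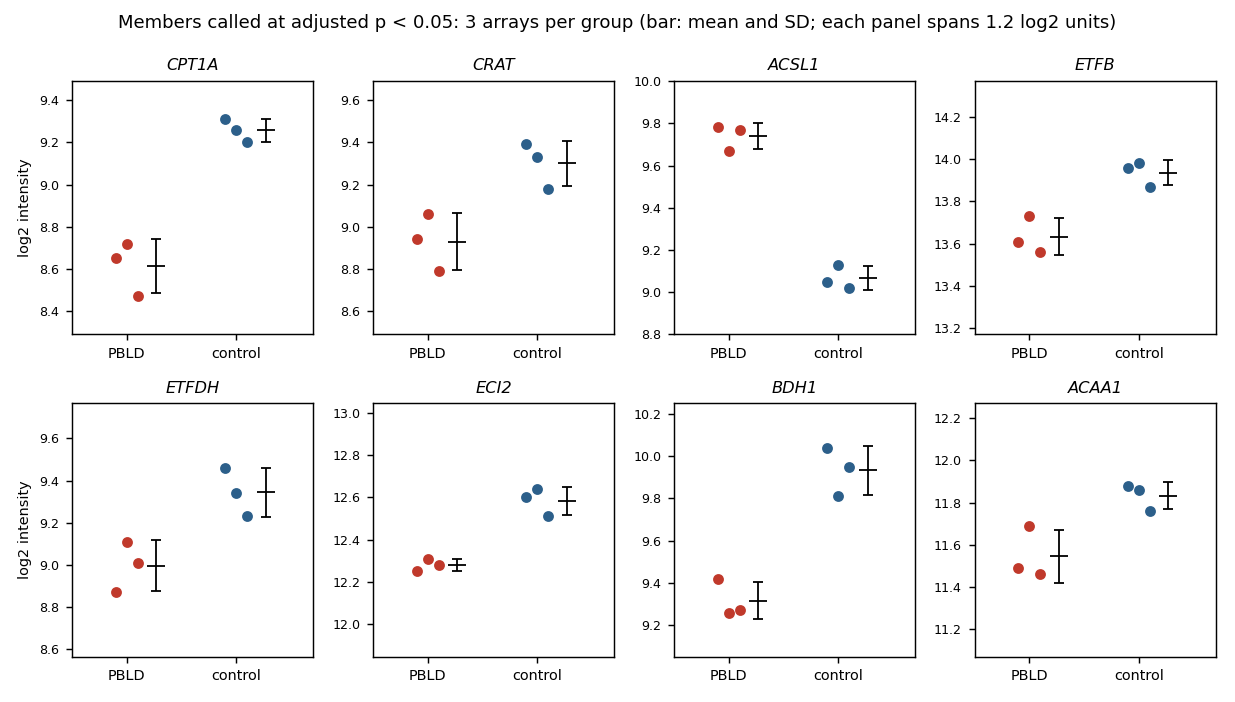
Log2 intensity on each array for the 8 members called at an adjusted p under 0.05, brightest probe (points: 3 PBLD and 3 control arrays; mark and bar: mean and SD; each vertical axis spans 1.2 log2 units). PBLD arrays lie below control arrays in 7 panels and above them for ACSL1.

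For ketone bodies, BDH1, which interconverts acetoacetate and 3-hydroxybutyrate, read 9.42, 9.26 and 9.27 in PBLD cells, against 10.04, 9.81 and 9.95 in control cells. The groups were apart by -0.62 (SE 0.07, 95% interval -0.77 to -0.46, limma adjusted p = 5.81e-05), or 1.53-fold lower on ILMN_1677637. Its other probe above background, ILMN_1799280, fell by 0.26 on the log2 scale (SE 0.07, limma adjusted p = 0.030), a call lost without control replicate 1 (limma adjusted p = 0.105) or 2 (0.143) and without PBLD replicate 1 (0.161) or 3 (0.0529). The ratio of these probes differed by -0.36 between groups with an overlap (exact permutation p = 0.2, 0.2 adjusted over the 4 pairs, in a test that cannot go below 0.1 with 3 arrays against 3). The limma interval of ILMN_1799280, -0.40 to -0.11, did not overlap that of ILMN_1677637. ACAT1, the mitochondrial thiolase that condenses acetyl-CoA at the start of ketogenesis, averaged 11.97 ± 0.08 in PBLD cells and 12.21 ± 0.18 in control cells (SD, n = 3 each). Its difference of -0.24 (95% interval -0.41 to -0.06, limma adjusted p = 0.126) was not called. ACAT1 was called lower after quantile, 75th percentile or cyclic loess scaling, with array weights or a replicate block, and without control replicate 3.

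In peroxisomal beta-oxidation, 1 of 5 genes fell. ACAA1, the peroxisomal thiolase, read 11.49, 11.69 and 11.46 in PBLD cells, against 11.88, 11.86 and 11.76 in control cells. All its PBLD arrays were lower, at -0.28 (SE 0.07, limma adjusted p = 0.0242), but the call was lost without control replicate 1 (0.111) or control replicate 2 (0.102), and without PBLD replicate 1 (0.122) or PBLD replicate 3 (0.095). The steps before it were not called: the branched-chain oxidase ACOX2 had 0.10, the oxidase ACOX3 -0.13, and the bifunctional enzymes EHHADH -0.08 and HSD17B4 0.09.

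PLIN2, the coat protein of lipid droplets, fell on ILMN_1801077, at 12.36, 12.39 and 12.28 in PBLD cells, against 12.82, 12.82 and 12.44 in control cells (-0.35, SE 0.09, limma adjusted p = 0.0261). That call was lost without control replicate 1 (0.149) or 2 (0.158) or PBLD replicate 1 (0.0869) or 3 (0.0786). Its brighter probe ILMN_2138765 gave -0.25 without a call in the main fit. That probe was called lower after quantile, 75th percentile or cyclic loess scaling, with array weights or a replicate block, and without control replicate 3. FABP1, the fatty acid carrier of the hepatocyte cytosol, was above background on 1 of 6 arrays, at 7.98 to 8.02 in PBLD cells and 7.94 to 8.11 in control cells.

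**Figure D4:**
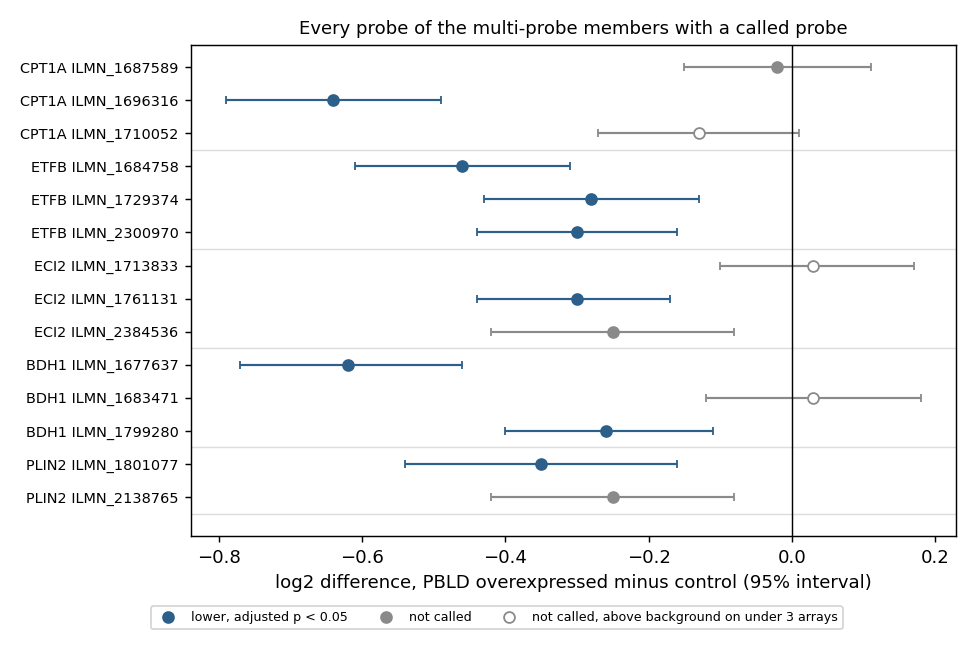
Log2 difference, PBLD overexpressed minus control, with 95% intervals, for every probe of the 5 members that have several probes and at least 1 called (blue: fell; grey: not called; open: above background on under 3 arrays). All 3 ETFB probes fell, the probes of ECI2, BDH1 and PLIN2 above background lie on the same side of 0, and the 2 CPT1A probes above background stand apart.

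Peroxins import proteins into peroxisomes or make and divide the organelle, and 0 of 9 were called in limma (0 at an unadjusted p under 0.05). The matrix import receptor PEX5 had -0.05 (95% interval -0.22 to 0.13), and its docking partner PEX14 had 0.03 (-0.13 to 0.18). Factors that insert membrane proteins, PEX16 and PEX19, had -0.10 (-0.29 to 0.09) and -0.06 (-0.20 to 0.09), and the division factor PEX11A had -0.04 (-0.19 to 0.10). PEX6, part of the motor that recycles PEX5, had -0.13, and PEX2, of the ubiquitin ligase in the membrane, 0.09. PEX3 and PEX7 were above background on no array.

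Other genes of the pathway were read from lists chosen by function. In the PPARA axis, 5 of 18 genes fell and 0 rose, with a median of -0.11. CIDEC, which enlarges lipid droplets, averaged 9.72 ± 0.16 in PBLD cells and 10.59 ± 0.18 in control cells (SD, n = 3 each), or 1.83-fold lower (-0.87, SE 0.09, limma adjusted p = 1.85e-05). The transcription factor CREB3L3 (-0.58), the coactivator PPARGC1A (-0.47), the lipase inhibitor ANGPTL4 (-0.44) and the triglyceride lipase PNPLA2 (-0.33) fell as well. CIDEC also fell on its dimmer probe ILMN_1779597 (-0.32). ANGPTL4 was not called on ILMN_2386444 (-0.25) or on ILMN_1674376 (-0.04), which lay near background. PNPLA2 lost its call without control replicate 1 (limma adjusted p = 0.0858) or 2 (0.05) or PBLD replicate 3 (0.0568). PPARA itself was not called on its brightest probe (-0.13, 95% interval -0.27 to 0.01) and fell on a dimmer one, ILMN_2362847 (-0.28, limma adjusted p = 0.0157). On ILMN_2362847 the PBLD readings of 8.05, 8.07 and 8.09 lay about the background limit, and 2 of these 3 arrays were above it. Another PPARA probe, ILMN_1659346, gave -0.03 and was above background on no array. PDK4, FGF21, CYP4A11 and G0S2, known PPARA targets, were above background on no array.

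Among 26 other genes listed under mitochondrial oxidation and ketone bodies, 4 rose and 3 fell, with a median of -0.02. The list also holds enzymes outside mitochondria, such as the cytosolic ACAT2, so its shares are not those of mitochondrial oxidation alone. The thioesterase ACOT7 (0.32), the cytosolic thiolase ACAT2 (0.31), HSD17B10, a short-chain hydroxyacyl dehydrogenase (0.29), and ACAD9, a dehydrogenase that also helps assemble respiratory complex I (0.26), rose. The medium-chain acyl-CoA synthetase ACSM3 (-0.45), the acyl-CoA dehydrogenase ACAD11 (-0.34) and SLC27A2, a very long chain synthetase and transporter (-0.32), fell. ACAD11 was at -0.20 without PBLD replicate 3, where its call was lost (limma adjusted p = 0.141), as it was without control replicate 1 (0.145) or 2 (0.156). ACAD9 and HSD17B10 each lost their call without control replicate 1, 2 or 3 or PBLD replicate 2, and ACAT2 without control replicate 1 or 3 or PBLD replicate 2, at log2 differences of 0.19 to 0.30. Of 23 other peroxisome genes, 4 fell and 0 rose, with a median of -0.01. These were CAT, the catalase that removes hydrogen peroxide made by peroxisomal oxidases (-0.54, and -1.10 on a dimmer probe), PHYH, which starts alpha-oxidation of phytanic acid (-0.46), AMACR, the racemase for branched chains (-0.34), and the enoyl-CoA reductase PECR (-0.26). PHYH fell on all of its 3 probes and CAT on both of its probes. HSD17B10 (0.33 on ILMN_1691926), ACSM3 (-0.38 on ILMN_1662738) and AMACR (-0.37 on ILMN_2367172) were called on a further probe as well. Further probes above background were not called for ACOT7 (0.18 on ILMN_2332250, -0.07 on ILMN_1788078) and ACAT2 (0.26 on ILMN_2133799). The same held for ACSM3 ILMN_1685952 (-0.21) and AMACR ILMN_1792741 (-0.13). PECR lost its call without control replicate 1 (limma adjusted p = 0.145) or 2 (0.0766) or PBLD replicate 2 (0.123) or 3 (0.0697). Across these lists the shares that fell were 27.8%, 11.5% and 17.4%, to be read beside the 4.2% of all genes that fell. The shares that rose were 0%, 15.4% and 0%, to be read beside the 5.81% of all genes that rose. Restricted to genes above background on at least 3 arrays, the falls were 45.5%, 14.3% and 23.5%, beside 7.63% of all such genes. The rises were then 0%, 19% and 0%, beside 10.5%.

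**Figure D5:**
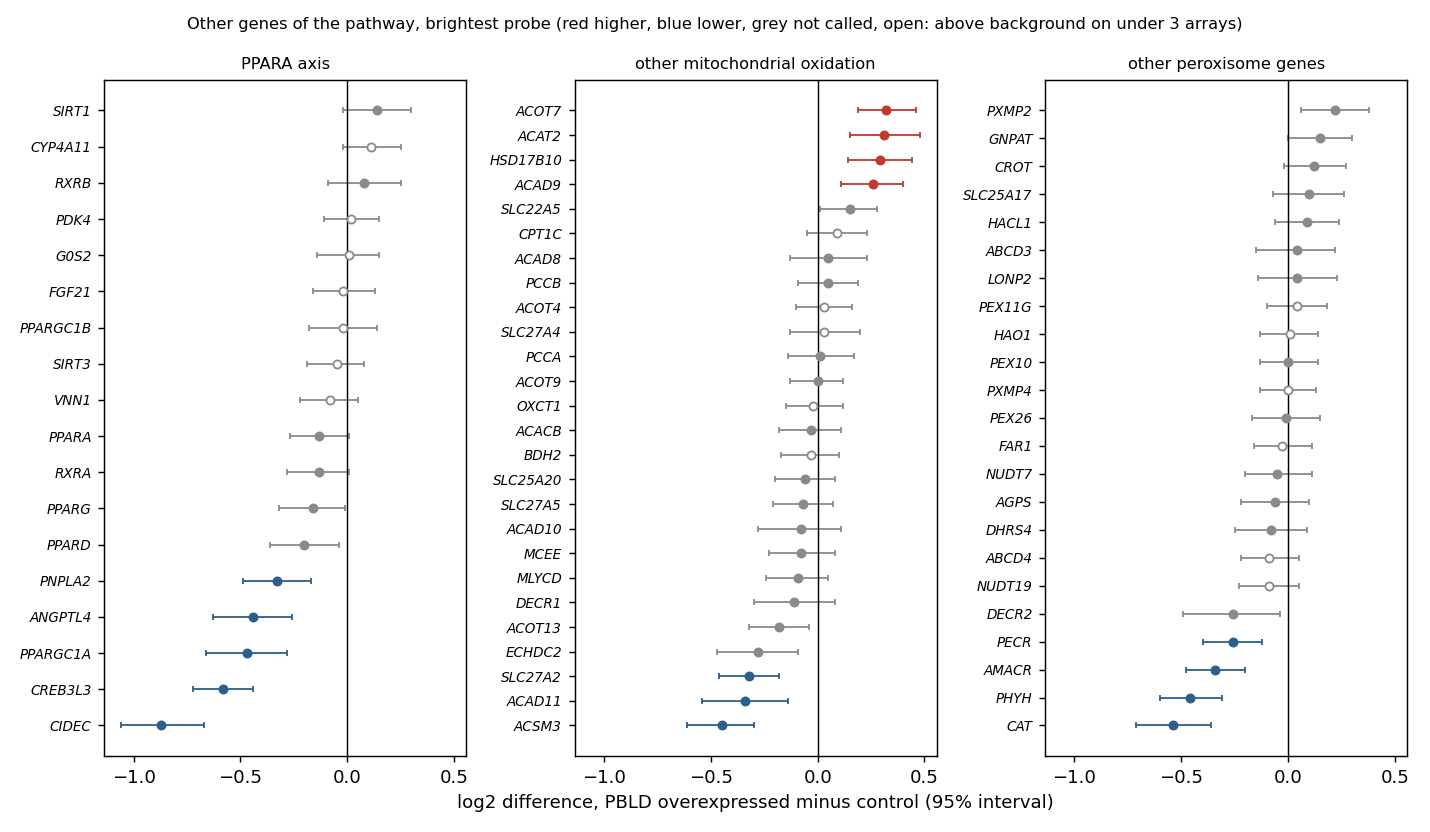
Log2 difference, PBLD overexpressed minus control, with 95% intervals, for the brightest probe of other genes of the pathway in 3 lists (red: rose; blue: fell; grey: not called; open: above background on under 3 arrays). CIDEC at -0.87 and CAT at -0.54 are the lowest of their lists, and the 4 rises all lie in the middle list.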

How the data were processed

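Total RNA from 6 HepG2 samples was hybridised to Illumina bead arrays. The authors deposited log2 intensity values of 47323 probes, each array at a median of 8; BeadStudio is named in the submitters' processing notes without version, and the sources used here do not give their scaling or background treatment. The non-normalized signals, also deposited, were left aside, because their 12 per-sample columns match no sample's labels. Probes took their gene from the platform annotation: 30113 have 1 symbol, 8 several and 17202 none. All 43 members matched RefSeq (GRCh38.p14) by Entrez identifier with 0 symbols changed; no build is named for the array. Every probe was tested with limma 3.58.1 in R 4.3.3 (lmFit, eBayes, two-sided), with p-values adjusted over the 47323 probes by Benjamini-Hochberg and called under 0.05. A gene was read on the probe with the highest mean. Each array's background limit was the 95th percentile over 569 probes of gene families silent in liver (odour, taste and vomeronasal receptors, keratin-associated proteins). The labels do not say whether replicate numbers pair the samples, and the main fit did not pair them. Deviations from group means correlated at 0.108, 0.0794 and 0.0604 between same-numbered arrays, and at -0.0625 to -0.0104 between the others. The 16 alternatives were quantile, normexp (offset 50) with quantile, 75th percentile and cyclic loess scaling, a trend with robust eBayes, array weights, a replicate block, removal of dim probes, each array left out, the mean of a gene's probes, and a threshold of 0.01. The steps were tested on simulated data. The members, lists and rule for named genes (every CPT1A probe, every called member, up to 6 called genes per further list) were chosen with earlier results of these data known. Beyond that rule, uncalled members, ACAD11, PPARA and 4 PPARA targets at background were named after their values were seen. Within-array ratios of 4 probe pairs were also chosen after values were seen. Figures used matplotlib 3.10.9.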

Additional observations from a re-analysis of the deposited data

How the results depend on the processing

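ACSL1 was the only member to rise in each of the 16 alternatives, and no named result changed its direction in any of them. CPT1A ILMN_1696316 kept its call, and ILMN_1687589 and ILMN_1710052 stayed uncalled, wherever they were fitted. Counts of falls moved by over 1.5 times in some settings. Member genes that fell numbered 11 after quantile normalization, 14 after cyclic loess and 3 after normexp, which was always followed by quantile normalization, and 4 to 9 when single arrays were left out. Member probes that fell numbered 17 after quantile normalization, 20 after cyclic loess, 4 after normexp, 7 with an intensity trend and robust settings, 7 at a threshold of 0.01, and 5 to 14 without single arrays. Genes that fell over the whole array numbered 1332 after quantile normalization, 1475 after cyclic loess, 406 after normexp, 533 at 0.01 and 520 to 989 without single arrays. Genes that rose numbered 245 after normexp, 638 at 0.01 and 741 to 1293 without single arrays. The moves over 1.5 times came without PBLD replicate 1 (4 members and 5 member probes fell), PBLD replicate 3 or control replicate 2 (7 member probes each), control replicate 1 (6 member probes and 520 genes fell), control replicate 3 (741 rose) and PBLD replicate 2 (775 rose). The members' median was -0.14 after normexp and -0.10 to -0.03 without single arrays. The shares of all genes that fell were then 6.64% after quantile normalization, 7.36% after cyclic loess and 2.03% after normexp. Scaling changed the PBLD minus control difference by a median over all probes of at most 0.0125 in size (normexp, -0.0125 on the log2 scale). Single probes moved further, as CPT1A ILMN_1696316 did below. With the replicate number as a block, 10 members fell and 1 rose (1139 and 1581 of all genes), a shared number that the labels do not tie to a culture or day, though each array correlated best with its own number. Of 28 named probe results, 16 lost their call after normexp, 10 at a threshold of 0.01, 7 with the trend and robust settings, and 3 to 11 without single arrays. The 16 lost after normexp included ETFB ILMN_2300970 and ILMN_1729374, ETFDH, ECI2, BDH1 ILMN_1799280, ACAA1 and PLIN2, all with differences at least as large as on the deposited values (ETFDH -0.49, ACAA1 -0.37), while ETFB ILMN_1684758 kept its call (adjusted p = 0.0263). They also included PNPLA2, ACAD9, ACAD11, HSD17B10, ACAT2, ACOT7, SLC27A2, AMACR and PECR, and the cause was not tested. Probes near background limit what can be seen: ACADL, FABP1, PEX3 and PEX7 have no level above it on at least 3 arrays. CPT1A ILMN_1687589 lay close above it on every array. The CPT1A ILMN_1696316 difference of -0.64 on the deposited scale was -0.95 after normexp.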
